A study of Homo sapiens with 6 samples.

Results

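The genes described here are the keratins KRT7, KRT8, KRT15, KRT17, KRT18, KRT19, KRT80, KRT81 and KRT86 and the keratin-associated protein gene KRTAP2-3, 10 genes in all. Of these, 9 were among the 11974 genes tested on the arrays. They were followed in MDA-MB-231, a human breast cancer cell line with mesenchymal features, after transfection with a precursor of hsa-miR-205-5p, with one of hsa-miR-214-3p, or with a scrambled control. Each group had 2 arrays, all from the same line, and by the series design RNA was taken 72 h after transfection. The labels do not say whether the arrays of a group came from separate cultures, so p-values measure only the spread between these arrays, which may be technical. All 6 arrays lay on 1 slide, and each group had its own positions on it, so position and group cannot be told apart. The question for each precursor was which genes changed against the scrambled control.

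Members were chosen by name, and KRTAP2-3 was chosen by its rise with hsa-miR-205-5p on these arrays. Its values are therefore a description with no test in any comparison, since all 3 comparisons share arrays. On the array 12 probes could be matched to 9 of the 10 genes through the RefSeq gene table. None was matched to KRT86, and a probe with a transcript identifier that the table does not list may belong to it, so KRT86 is not described here. Chromosome 12 holds 6 of the members and chromosome 17 the other 4. Of the 12 probes, 11 passed the filter, which asked for a signal well above background on every array of 1 group or more, and these 11 were well above background on all 6 arrays. The remaining probe, A_24_P67395 of KRT8, was well above background on 1 of 6 arrays and was not tested.

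Keratins are the intermediate filament proteins of epithelial cells. A filament is built from pairs of a type I and a type II keratin, and KRT8 with KRT18 is the pair found in simple epithelia, with KRT7 and KRT19 as further simple-epithelial keratins. KRT15 and KRT17 are known from basal cells and from skin and its appendages, KRT80 from many epithelia, and KRT81 and KRT86 are type II hair keratins. Keratin-associated proteins such as KRTAP2-3 are small proteins that crosslink hair keratin filaments in the hair shaft, and their genes lie in clusters.

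The mature sequences of the transfected miRNAs are shown because they define the groups, written 5′ to 3′ with the seed, bases 2 to 8, in capitals. They come from RefSeq (GRCh38.p14), where the first lies at chr1:209432166-209432187 on the plus strand and the second at chr1:172138816-172138837 on the minus strand. The seeds differ, and both miRNAs are 22 bases long.
hsa-miR-205-5p: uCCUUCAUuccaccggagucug
hsa-miR-214-3p: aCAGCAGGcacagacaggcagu

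Levels are given as the processed signal of the scanner software, a background-subtracted brightness that is not logged, or as log2 of it minus the 75th percentile of the same array, called the log2 signal. Differences between groups are on this log2 scale. A probe was called when limma's Benjamini-Hochberg adjusted p over all 18464 tested probes was under 0.05 and the change was at least 2-fold. None of the spots were saturated. As a check of the label, the 7 mesenchymal markers of the line (VIM, CD44, EGFR, AXL, CAV1, MSN and ZEB1) were well above background on all 6 arrays. Of the 7 luminal markers, GATA3, ERBB3, CDH1 and EPCAM were above background on all 6 arrays and ESR1, PGR and FOXA1 on none. Of 7 genes of leukocytes, endothelium, myofibroblasts and pericytes, none was above background on all 6 arrays, and CD3E, VWF and PDGFRB were among those above it on none.

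With hsa-miR-205-5p, 1 of the 10 tested keratin probes was called higher and 0 lower. Over all probes, 4.14% were called higher and 8.05% lower in this comparison, so the share of keratin probes called rests on a single probe. The called probe was that of KRT19. At an unadjusted p under 0.05 in limma there were 4 of the 10, beside 37.2% of all probes in either direction. Of the 10 probes, 8 lay above 0 and 2 below it, with a median log2 difference of 0.39 beside 0.05 over all tested probes. Scaling the arrays to their medians shifts all probes alike. It moved the median of all probes to -0.34 and that of the 10 keratin probes to 0.0023. It left 5 of the 10 keratin probes above 0, with KRT15, KRT80 and the probe A_32_P151544 of KRT18 passing below 0. With the normexp background correction 7 of the 10 lay above 0.

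**Figure D1:**
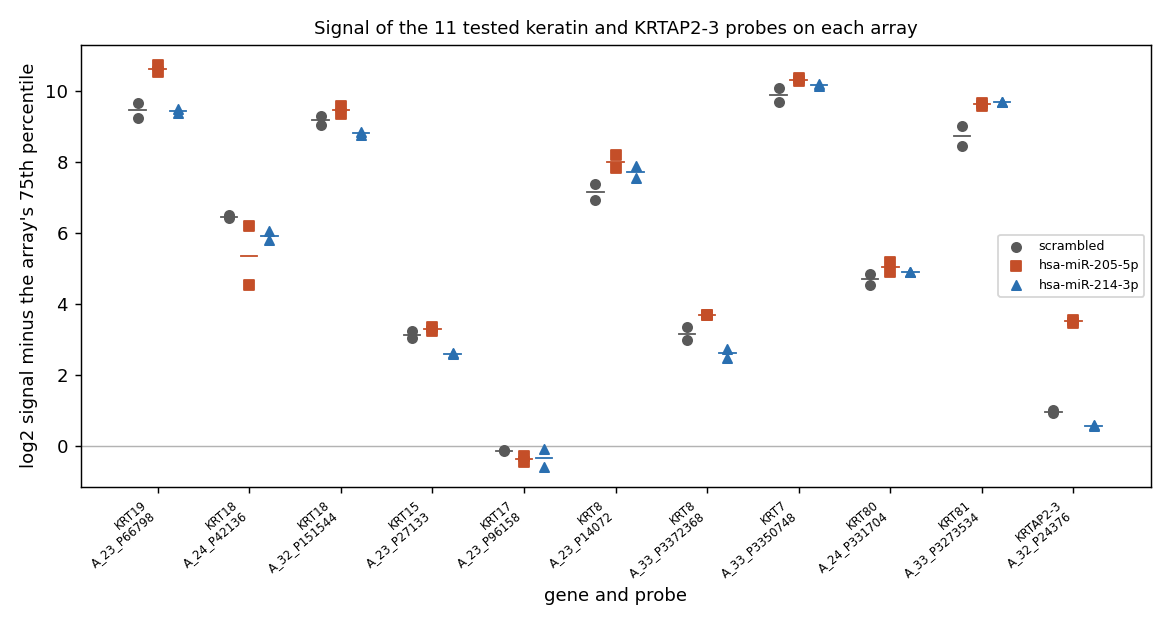
Log2 signal (log2 processed signal minus the 75th percentile of the array, vertical axis) of the 11 tested probes of the keratins and KRTAP2-3 (horizontal axis) on each array, with circles for scrambled, squares for hsa-miR-205-5p and triangles for hsa-miR-214-3p, and bars at the group means. Both hsa-miR-205-5p arrays lay above the other 4 for KRTAP2-3, KRT19, KRT7, KRT15 and the probes A_33_P3372368 of KRT8 and A_32_P151544 of KRT18, with the widest gaps for KRTAP2-3 and KRT19, and for the probe A_24_P42136 of KRT18 the 2 hsa-miR-205-5p arrays lay far apart.

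KRT19 is the smallest keratin and lacks most of the tail domain. Its processed signal was 61956 and 60547 on the hsa-miR-205-5p arrays, 32332 and 26491 on the hsa-miR-214-3p arrays, and 41063 and 35523 on the scrambled arrays. Both hsa-miR-205-5p arrays lay above all others, before scaling and after it. On the log2 scale KRT19 was 1.18 higher with hsa-miR-205-5p than with the scrambled control (SE 0.21, 95% confidence interval 0.66 to 1.69, adjusted p = 0.0201), a 2.26-fold difference. The difference stayed above 0 in all 21 alternatives (0.60 to 1.39), but the call was lost in 12 of them (adjusted p from 0.0073 to 0.222 over the 21), also when hsa-miR-205-5p replicate 1 (adjusted p = 0.0659) or hsa-miR-205-5p replicate 2 (adjusted p = 0.1) was left out. It was lost too when either hsa-miR-214-3p array was left out (adjusted p = 0.0655 each time, the same as in the fit on the 4 arrays compared, since the array that remains adds nothing to the spread), and without scrambled replicate 2 the difference was 0.97, under the 2-fold limit. A probe for KRT19P2, a KRT19 pseudogene, was named after its values were seen and had a log2 difference of -0.46 (adjusted p = 0.165).

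KRT18, the type I partner of KRT8, had 2 probes that differed. The probe A_32_P151544 read 32313 and 23211 with hsa-miR-205-5p against 32028 and 30951 with the scrambled control, a log2 difference of 0.30 after scaling (95% confidence interval -0.16 to 0.75, adjusted p = 0.283). The probe A_24_P42136 read 3063 and 820 against 4293 and 5256, a log2 difference of -1.09 (95% confidence interval -2.41 to 0.23, adjusted p = 0.195). Its 2 hsa-miR-205-5p arrays were further apart than those of any other tested member probe, with an SD of 1.17 on the log2 scale. Without hsa-miR-205-5p replicate 1 this probe was called lower (log2 difference -1.91, adjusted p = 0.0384, with a range of 0.0384 to 0.531 over the alternatives), and without hsa-miR-205-5p replicate 2 the difference was -0.26. A probe for the pseudogene KRT18P55, also named after its values were seen, had a log2 difference of -0.23 (adjusted p = 0.401). Within the arrays, KRT19 changed by 0.88 more than KRT18 did at its probe A_32_P151544, between 0.58 and 1.18 over pairs of arrays.

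The other type I members were not called with hsa-miR-205-5p. KRT15 read 428 and 331 against 472 and 482, a log2 difference of 0.16 after scaling (95% confidence interval -0.24 to 0.56, adjusted p = 0.509). KRT17, a keratin of basal and wound-edge epithelium, read 34.1 and 25.6 against 45.5 and 53.1, a log2 difference of -0.24 (95% confidence interval -0.77 to 0.30, adjusted p = 0.455). For KRT15 the unscaled signals were lower with hsa-miR-205-5p and the scaled values slightly higher, so the sign came with the scaling.

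Among the type II members, KRT81 had the largest log2 difference with hsa-miR-205-5p, 0.89 (SE 0.22, 95% confidence interval 0.34 to 1.45, adjusted p = 0.0462), which is 1.86-fold and under the 2-fold limit. Its processed signal was 33932 and 27112 with hsa-miR-205-5p and 25978 and 20402 with the scrambled control, and the groups did not overlap. KRT81 has close relatives, KRT83 and KRT86 among them, and how far its probe also binds their transcripts was not tested. Without scrambled replicate 1 KRT81 was called, with a log2 difference of 1.17.

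KRT8, the type II partner of KRT18, read 9514 and 10270 with hsa-miR-205-5p against 8427 and 7059 at its probe A_23_P14072. The log2 difference was 0.85 (SE 0.25, 95% confidence interval 0.23 to 1.48, adjusted p = 0.0685), and both hsa-miR-205-5p arrays lay above both scrambled arrays. Without scrambled replicate 1 it was called, with a log2 difference of 1.09. The probe A_33_P3372368, designed to a non-coding KRT8 transcript, read 538 and 457 against 511 and 460, a log2 difference of 0.53 after scaling (95% confidence interval 0.03 to 1.03, adjusted p = 0.117). KRT7 read 51817 and 46939 against 54584 and 48672, so its groups overlapped before scaling, and its log2 difference after it was 0.43 (95% confidence interval -0.04 to 0.90, adjusted p = 0.158). KRT80 gave 0.35 (95% confidence interval -0.14 to 0.84, adjusted p = 0.247). The upper ends of the KRT7 and KRT80 intervals lie just under a 2-fold change and those of both KRT8 probes above it.

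**Figure D2:**
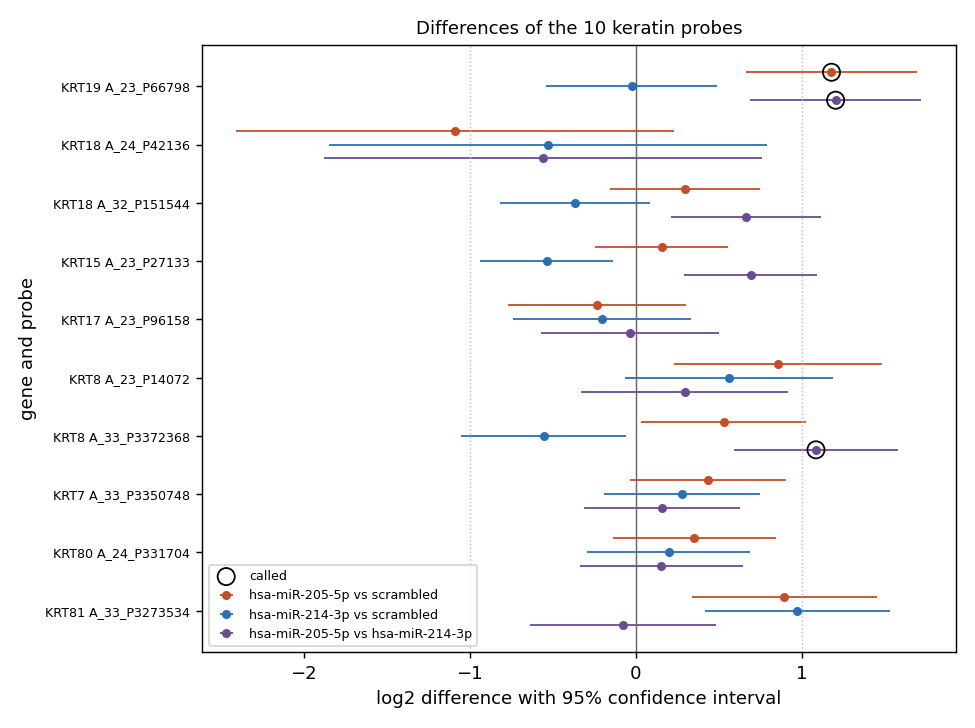
Log2 difference (horizontal axis) of the 10 tested keratin probes (vertical axis) in the 3 comparisons, with bars for the 95% confidence interval of the limma fit over 6 arrays, dotted lines at a 2-fold change and open rings around called probes. KRT19 was called against both other groups, the probe A_33_P3372368 of KRT8 against hsa-miR-214-3p, and all 10 intervals of hsa-miR-214-3p against scrambled belong to probes that were not called.

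With hsa-miR-214-3p, 0 of the 10 keratin probes were called by limma in either direction, beside 0.991% higher and 1.68% lower over all probes. At an unadjusted p under 0.05 there were 3, KRT81, KRT15 and the probe A_33_P3372368 of KRT8, beside 22.6% of all probes in either direction, and 0 of them reached the 2-fold limit. The log2 differences ran from -0.55 to 0.97 with a median of -0.11, and 4 probes lay above 0 and 6 below it. KRT81 lay highest, with a processed signal of 40473 and 30648 against 25978 and 20402 (log2 difference 0.97, 95% confidence interval 0.41 to 1.53, adjusted p = 0.0859). KRT19 did not separate from the scrambled arrays, with a log2 difference of -0.02 and a 95% confidence interval of -0.54 to 0.49. KRT15 was 0.54 lower (log2 difference -0.54, adjusted p = 0.136), and its 2 hsa-miR-214-3p arrays, at 297 and 221, lay below all other arrays. The probes of KRT8 pointed in opposite directions, with 0.56 at A_23_P14072 (adjusted p = 0.259) and -0.55 at A_33_P3372368 (adjusted p = 0.186). The change of the first exceeded that of the second by 1.12 within the arrays, between 1.03 and 1.20 over pairs of arrays. KRT18 gave -0.37 and -0.53, KRT17 -0.20, KRT7 0.28 and KRT80 0.20, none of them called.

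Set directly against each other, the precursors differed at 2 of the 10 keratin probes, both higher with hsa-miR-205-5p and 0 lower, beside 8.37% higher and 11.6% lower over all probes. KRT19 was 1.20 higher on the log2 scale (SE 0.21, 95% confidence interval 0.69 to 1.72, adjusted p = 0.0125), a 2.30-fold difference. The probe A_33_P3372368 of KRT8 was 1.08 higher (SE 0.20, adjusted p = 0.0146), with 538 and 457 against 270 and 245. KRT15 (0.69, adjusted p = 0.0274) and KRT18 at A_32_P151544 (0.66, adjusted p = 0.0424) passed the adjusted p but not the 2-fold limit. KRT18 at A_24_P42136 gave -0.56 (adjusted p = 0.437). There the difference was -1.39, beyond the 2-fold limit, without hsa-miR-205-5p replicate 1 and 0.27 without hsa-miR-205-5p replicate 2. For KRT81, which lay high with both precursors, the difference between them was -0.08 with a 95% confidence interval of -0.64 to 0.48. The KRT19 call was lost in 7 of 21 alternatives and the KRT8 call in 8. Both were lost when hsa-miR-205-5p replicate 2 or either hsa-miR-214-3p array was left out, with KRT19 at 1.10 to 1.26 and the KRT8 probe at 0.95 to 1.22. The KRT8 call was also lost without hsa-miR-205-5p replicate 1 (adjusted p = 0.0653, with a range of 0.00562 to 0.11 over the alternatives).

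KRTAP2-3 had a processed signal of 493 and 387 with hsa-miR-205-5p, 72.6 and 53.9 with hsa-miR-214-3p, and 95.2 and 116 with the scrambled control. The hsa-miR-205-5p arrays were far above the other 4, and the hsa-miR-214-3p arrays were the lowest. The log2 signal was 3.51 ± 0.07 (SD, n = 2), 0.57 ± 0.02 (SD, n = 2) and 0.96 ± 0.06 (SD, n = 2) in the same order. The difference between hsa-miR-205-5p and scrambled, which chose the gene, was 2.55 or 5.86-fold, the rank 32 from the highest of 18464 probes. Against hsa-miR-214-3p it was 2.94 or 7.68-fold, and hsa-miR-214-3p lay at -0.39 against scrambled. Over the alternatives the difference from scrambled ran from 1.82 to 2.60 and that from hsa-miR-214-3p from 2.04 to 2.99.

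Genes of the KRTAP2 family are closely related and follow each other on chromosome 17, with KRTAP2-3 between KRTAP2-2 and KRTAP2-4. The stretches upstream of the 4 annotated starts are shown for KRTAP2-3, the member with the largest difference, beside its family. They lie outside the transcripts and say nothing of what a probe binds. They are from RefSeq (GRCh38.p14), 62 bases each on the minus strand, lined up on TATATAAA in capitals.
KRTAP2-1: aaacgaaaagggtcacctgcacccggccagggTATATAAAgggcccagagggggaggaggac
KRTAP2-2: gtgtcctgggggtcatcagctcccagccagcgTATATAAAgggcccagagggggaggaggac
KRTAP2-3: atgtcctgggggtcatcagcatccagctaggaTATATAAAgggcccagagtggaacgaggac
KRTAP2-4: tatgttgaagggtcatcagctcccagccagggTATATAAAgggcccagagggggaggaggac
They lie at chr17:41047332-41047393, chr17:41055276-41055337, chr17:41060115-41060176 and chr17:41065910-41065971. Of the 62 bases of KRTAP2-3, 53 are shared with KRTAP2-2, 46 with KRTAP2-4 and 45 with KRTAP2-1. Searched on both strands, TATATAAA stood in the 250 bases before the start of 372 of 35116 promoters (1.06%), so a match is uncommon, and it describes the letters only.

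KRTAP2-4, KRTAP1-3 and KRTAP1-4 gave smaller differences than KRTAP2-3, and how far each probe also binds transcripts of related genes was not tested. KRTAP2-2 had no tested probe, and the probe of KRTAP2-1 was above background only on the 2 scrambled arrays, so no difference is given for either. KRTAP2-4 read 1607 and 1284 with hsa-miR-205-5p, 1113 and 935 with hsa-miR-214-3p and 2054 and 1287 with the scrambled control, and its hsa-miR-205-5p and scrambled arrays overlapped. Its log2 difference with hsa-miR-205-5p was 0.32 (adjusted p = 0.484). Within the arrays, KRTAP2-3 changed by 2.23 more than KRTAP2-4, between 1.74 and 2.73 over pairs of arrays. KRTAP2-3 was chosen by its rise, so a larger change than that of its neighbours follows from the choice and is a description only. KRTAP1-3 and KRTAP1-4, in the same cluster, gave 0.32 (adjusted p = 0.482) and 0.34 (adjusted p = 0.406). Against hsa-miR-214-3p, KRTAP2-4 gave 0.63 (adjusted p = 0.165), KRTAP1-3 0.70 (adjusted p = 0.134) and KRTAP1-4 1.04 (adjusted p = 0.0376). For each of these probes both hsa-miR-205-5p arrays lay above both hsa-miR-214-3p arrays. KRTAP2-4 and KRTAP1-3 were named after their values were seen.

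**Figure D3:**
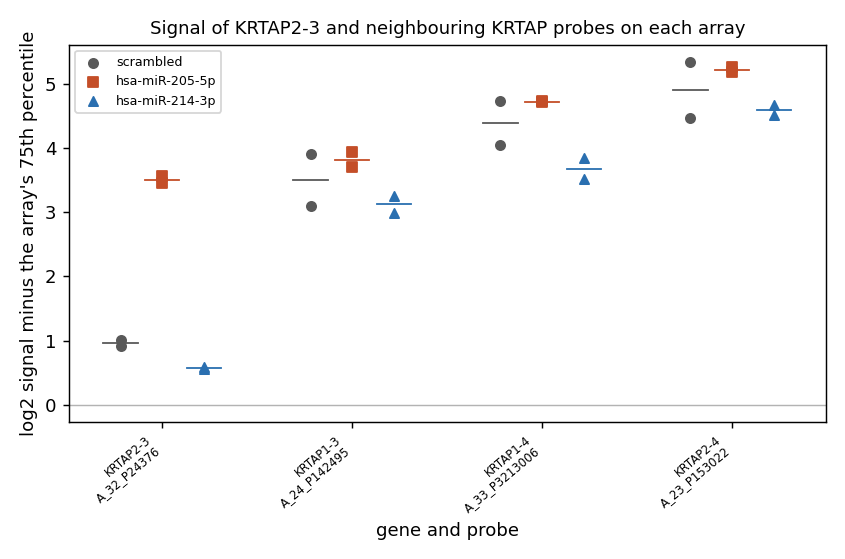
Log2 signal (vertical axis) of the probes of KRTAP2-3, KRTAP1-3, KRTAP1-4 and KRTAP2-4 (horizontal axis) on each array, with symbols as for the member probes and bars at the group means. For KRTAP2-3 the hsa-miR-205-5p arrays lie at 3.56 and 3.46 and the other 4 arrays between 0.56 and 1.00, while the hsa-miR-205-5p and scrambled arrays of the other 3 probes overlap.

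Of the 94 other KRTAP genes, 17 had a tested probe (18 probes). With hsa-miR-205-5p 1 of the 18 was called higher and 0 lower, beside 4.14% and 8.05% over all probes. It was KRTAP9-1 at its probe A_33_P3352349, with 1.76 (adjusted p = 0.0272), a call lost in 8 of 21 alternatives, among them the removal of any one array of either precursor. Its other probe, A_33_P3352340, gave 0.14 (adjusted p = 0.735). With hsa-miR-214-3p 0 were called by limma, beside 0.991% higher and 1.68% lower over all probes, with 4 at an unadjusted p under 0.05, beside 22.6%. Against hsa-miR-214-3p, hsa-miR-205-5p was called higher at 4 of the 18, beside 8.37% over all probes, and the median log2 difference was 0.66 beside 0.09. Only 11 of the 18 were above background on all 6 arrays, so both the count and the median take in probes at background on some arrays. The 4 called were KRTAP7-1, KRTAP9-1 (1.54, with 0.79 and adjusted p = 0.0781 at its other probe), KRTAP10-9 and KRTAP1-4 (1.04, adjusted p = 0.0376). The call for KRTAP9-1 was lost in 5 of 21 alternatives and that for KRTAP1-4 in 10 of 21. KRTAP7-1, with neither hsa-miR-214-3p array well above background, was at least 5.17-fold higher with hsa-miR-205-5p (adjusted p = 0.00915), a bound taken against the lowest signal well above background on the dim arrays. The bound was 8.95-fold from hsa-miR-205-5p replicate 1 alone and 2.99-fold from replicate 2 alone. The call was lost in 4 of 20 alternatives, among them without either hsa-miR-214-3p array and with normexp, where the log2 difference was 0.64. KRTAP10-9 was above background on 1 of 2 hsa-miR-205-5p arrays and on neither hsa-miR-214-3p array, entered the test through the scrambled arrays and lost its call in 10 of 20 alternatives, so no size is given.

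The 5 genes whose log2 signals over the 6 arrays were most like those of KRTAP2-3, among the 722 whose group means spanned at least 2, were CDS1, SLC18B1, IL23A, PRSS16 and CKMT1A. Pearson's r ran from 0.993 to 0.996 over the 6 arrays, which are 3 groups on 1 slide, and a high r follows from choosing genes by their likeness. PRSS16 lay under the lowest signal well above background on all 4 arrays without hsa-miR-205-5p and CDS1 on 1 of them, so their r rests in part on values at background. IL23A, a subunit of the cytokine interleukin-23, had a log2 difference of 3.95 with hsa-miR-205-5p and -0.14 with hsa-miR-214-3p.

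Most other keratins were near background. Of the 46 other keratin genes in the lists, 45 had a probe and 6 a tested probe (7 probes). With either precursor against scrambled, 0 of the 7 were called by limma, where the shares of all probes, 4.14% higher and 8.05% lower with hsa-miR-205-5p and 0.991% and 1.68% with hsa-miR-214-3p, come to less than 1 probe in 7. At an unadjusted p under 0.05 there were 0 with hsa-miR-205-5p, beside 37.2% of all probes, and 1 with hsa-miR-214-3p, beside 22.6%. Between the precursors KRT83, a hair keratin, was lower with hsa-miR-205-5p at 1 of its 2 probes (log2 difference -1.08, adjusted p = 0.0284, A_33_P3273552), beside 11.6% lower over all probes. The other, A_24_P410408, gave -0.04 (adjusted p = 0.919). The call was lost in 6 of 21 alternatives, among them without hsa-miR-205-5p replicate 2 (-0.80) and without either hsa-miR-214-3p array. The processed signal of the called probe was 1084 and 621 with hsa-miR-205-5p and 2117 and 1708 with hsa-miR-214-3p.

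The list of linkers held genes of desmosomes and of proteins that tie parts of the cytoskeleton together. Of its 19 tested probes of 12 genes, 5 were called higher with hsa-miR-205-5p and 0 lower, beside 4.14% and 8.05% over all probes, with a median log2 difference of 0.33. The 5 called probes belonged to DSP, PKP3 and MACF1. At an unadjusted p under 0.05 in limma there were 8 of the 19, beside 37.2% of all probes in either direction. DSP encodes desmoplakin, which ties keratin filaments to the desmosomal plaque, and its probe A_32_P157945 read 1808 and 1541 with hsa-miR-205-5p, 750 and 547 with hsa-miR-214-3p and 873 and 931 with the scrambled control. Its log2 difference from scrambled was 1.38 (adjusted p = 0.00888), and the other DSP probe gave 1.01, a call lost in 11 of 21 alternatives. PKP3, the desmosomal plakophilin 3, read 10095 and 8710 with hsa-miR-205-5p, 2384 and 1913 with hsa-miR-214-3p and 3467 and 3035 with the scrambled control, a log2 difference from scrambled of 2.03 (adjusted p = 0.00799). MACF1, a linker of actin and microtubules, gave 1.14 and 1.61 at its 2 called probes, calls lost in 10 and 9 of 21 alternatives. For DSP at A_32_P157945 and for PKP3 the hsa-miR-205-5p arrays lay well above the other 4.

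With hsa-miR-214-3p 0 of the 19 linker probes were called by limma, beside 0.991% higher and 1.68% lower over all probes, with 3 at an unadjusted p under 0.05, beside 22.6%. Between the precursors 3 were called higher with hsa-miR-205-5p and 0 lower, beside 8.37% and 11.6% over all probes, with PKP3 at 2.27, DSP at 1.52 (A_32_P157945) and JUP, which encodes plakoglobin, at 1.40 (adjusted p = 0.00761). The other DSP probe gave 0.96 (adjusted p = 0.0159), under the 2-fold limit. The count of 5 against scrambled ran from 0 to 5 over the alternatives. It fell to 2 with normexp, with scaling to the median and on only the 4 arrays compared, and to 1 with no filter. It was 0 without hsa-miR-205-5p replicate 2, 2 without hsa-miR-205-5p replicate 1 or either hsa-miR-214-3p array, and 3 without scrambled replicate 2. The count of 3 between the precursors ran from 1 to 5, with 1 without hsa-miR-214-3p replicate 2 and 5 with no fold limit.

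**Figure D4:**
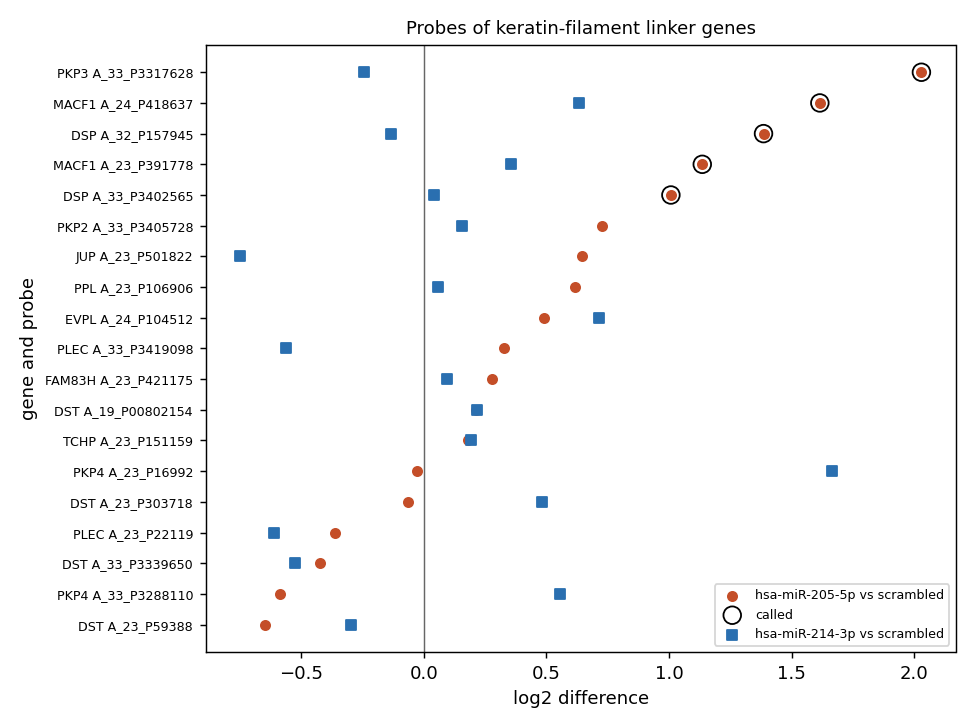
Log2 difference from the scrambled control (horizontal axis) of the 19 tested probes of genes in the linker list (vertical axis), with circles for hsa-miR-205-5p, squares for hsa-miR-214-3p and open rings around called probes. The 5 called probes, of PKP3, MACF1 and DSP, are all hsa-miR-205-5p values between 1.01 and 2.03.

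Of 12 tested probes of other intermediate filament genes, 2 were called lower and 1 higher with hsa-miR-205-5p, beside 8.05% lower and 4.14% higher over all probes. Both lower probes were of NES, the filament protein nestin, at -1.47 (adjusted p = 0.0108) and -1.54 (adjusted p = 0.00914), calls lost in 4 and 3 of 21 alternatives. IFFO1 was higher with hsa-miR-205-5p, by 1.05 (adjusted p = 0.0137), a call lost in 9 of 21 alternatives. It was also the only one of the 12 called with hsa-miR-214-3p, at 1.02 (adjusted p = 0.0411), beside 0.991% higher over all probes, and lost that call in 12 of 21. Both NES probes were also called lower with hsa-miR-205-5p than with hsa-miR-214-3p, at -1.30 and -1.16, beside 11.6% lower over all probes, and lost the call in 3 and 5 of 21 alternatives. VIM, the vimentin gene, was named after its values were seen and differed by -0.10 with hsa-miR-205-5p (95% confidence interval -0.49 to 0.28, adjusted p = 0.654). Among 7 tested probes of transcription factors known to act on keratin or hair genes, FOSL1 was lower with hsa-miR-205-5p against scrambled (-1.12, adjusted p = 0.018) and against hsa-miR-214-3p (-1.10), beside 8.05% and 11.6% lower over all probes, each call lost in 7 of 21 alternatives. LEF1 was lower after hsa-miR-214-3p transfection, at -1.09 (adjusted p = 0.0373), beside 1.68% lower over all probes, a call lost in 10 of 21. For hsa-miR-214-3p against scrambled, 0 of all tested probes were called by limma when any one array other than scrambled replicate 2 was left out.

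Some luminal markers were higher in the same group as KRT19. Of the 7, CDH1 (1.96, adjusted p = 0.00799), EPCAM (2.40, adjusted p = 0.00879) and ERBB3 at A_33_P3211569 (1.21, adjusted p = 0.0125) were called higher with hsa-miR-205-5p than with scrambled, 3 of 5 tested probes beside 4.14% over all probes. They were also called higher than with hsa-miR-214-3p, at 2.15, 2.33 and 1.09, beside 8.37% over all probes. GATA3, the other tested marker, gave 0.31 (adjusted p = 0.291) and 0.27 (adjusted p = 0.307). The other tested ERBB3 probe, A_23_P349416, matched to a different ERBB3 transcript, gave 0.05 (adjusted p = 0.866) and -0.68 (adjusted p = 0.04). The CDH1 probe was dim, beside a 75th percentile of 35.1 to 58 over the arrays. Its processed signal was 76.34 and 54.85 with hsa-miR-205-5p, 19.6 and 13.21 with hsa-miR-214-3p and 23.68 and 23.11 with the scrambled control. With normexp the difference of CDH1 was 0.76 from scrambled and 0.75 from hsa-miR-214-3p, and that of EPCAM was 1.59 and 1.70. The calls of CDH1, EPCAM and ERBB3 against scrambled were lost in 3, 2 and 6 of 21 alternatives, and those against hsa-miR-214-3p in 1, 1 and 7. Without hsa-miR-205-5p replicate 2, 0 of all tested probes were called by limma against scrambled (smallest adjusted p = 0.0559). The summed signal of the 7, as multiples of each array's 75th percentile, was 12.4 to 15.4 with hsa-miR-205-5p, 4.33 to 4.79 with hsa-miR-214-3p and 4.46 with the scrambled control, while ESR1, PGR and FOXA1 stayed at background on all 6 arrays. The summed signal of the 7 mesenchymal markers was 975 to 992, 926 to 961 and 914 to 964, a sum that the brightest of them carry. Against scrambled 0 of their 12 tested probes were called with hsa-miR-205-5p, beside 8.05% lower and 4.14% higher over all probes. CAV1 (-0.66 and -0.63, adjusted p = 0.0703 and 0.158) and ZEB1 (-0.56 and -0.47, adjusted p = 0.148 and 0.197) lay below both scrambled arrays on both hsa-miR-205-5p arrays at each of their 2 probes. Other markers went the other way. The probes of EGFR (1.09, 0.62 and 0.58, smallest adjusted p = 0.0537), CD44 (0.42 and 0.12) and AXL (0.29) lay above both scrambled arrays. MSN (0.30) overlapped them and VIM (-0.10) lay below. The median over the 12 probes was 0.20, and these markers were named after their values were seen. Between the precursors 1 of the 12, of EGFR, was called, beside 8.37% over all probes, and was 1.30 higher (adjusted p = 0.0249) with hsa-miR-205-5p than after hsa-miR-214-3p, a call lost in 8 of 21 alternatives, and its other tested probes gave 0.98 (adjusted p = 0.0575) and -0.33 (adjusted p = 0.306). The part of these markers in the keratin values was not tested. Among the genes of other cell types, the PECAM1 probe was above background on neither hsa-miR-205-5p array, 1 hsa-miR-214-3p array and both scrambled arrays. It was called lower in the hsa-miR-205-5p group, but entered the test through the scrambled arrays, so no size is given.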

How the data were processed

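The authors scanned 6 one-colour arrays and deposited Agilent Feature Extraction output (version 11.0 per the labels), in which each spot has a background-subtracted linear intensity. Their second deposited file, of log2 values whose columns are identical once sorted, served as an alternative. Control and outlier spots were left out (4 probes lost an array and were dropped), repeat spots were averaged per probe, and each array's 75th percentile was subtracted on the log2 scale. Probes were named through the RefSeq table (GRCh38.p14, names and gene order only).

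limma 3.58.1 (R 4.3.3) was fitted to all 6 arrays with 3 group means, two-sided, and Benjamini-Hochberg adjustment ran over 18464 probes. Fits without 1 array assume that the lone array varies like the other groups. The number of arrays limits the precision. The functions were tested on simulated data. A first version, of 1 draw, failed its limit on false calls. The test was then changed in its simulated spread and to the mean over many draws. Only the mean was held to the limit, and single draws could still exceed it. Members, lists and tests were chosen with earlier results of these data known. The text names every member probe, list genes that were called, the 5 genes most like KRTAP2-3, and others where stated. One gene of the marker lists is not reported here, and some others are given only within counts or sums.

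Alternatives were normexp (offset 50, on the median signal), quantile and median scaling, the authors' table, the percentile over probes detected on every array, no filter, a stricter filter, only the arrays compared, a replicate block, intensity trend, leaving out each array, the methods' t-test, unadjusted p, no fold limit and outlier spots kept. No slide block was possible on 1 slide. Python 3.11.15 with pandas 2.3.3 and matplotlib 3.10.9 made tables and plots.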

Additional observations from a re-analysis of the deposited data

How the results depend on the processing

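Of the keratin counts, that of hsa-miR-214-3p against scrambled was 0 in all 21 alternatives, so only the other 2 moved. The count for hsa-miR-205-5p against scrambled, 1 as reported, was 0 with normexp, quantile normalization, scaling to the median, the authors' table, no filter, only the 4 arrays compared and the adjusted t-test, 2 with no fold limit, and 0 to 3 when 1 array was left out, with 3 without scrambled replicate 1. The count between the precursors, 2 as reported, was 1 with normexp, quantile normalization, the authors' table and the adjusted t-test, 0 with scaling to the median and with no filter, 4 with no fold limit, and 0 to 2 when 1 array was left out. The linker count of 5 against scrambled was also 0 with the adjusted t-test. For KRT19 against scrambled the log2 difference was 0.60 with normexp, 0.91 with quantile normalization, 0.79 with scaling to the median and 0.92 in the authors' table. Some differences that were not called in the reported fit changed sign. With hsa-miR-205-5p against scrambled, scaling to the median gave -0.234 for KRT15, -0.0941 for KRT18 (A_32_P151544), -0.0388 for KRT80, -0.0717 for KRTAP2-4, -0.071 for KRTAP1-3 and -0.0541 for KRTAP1-4, and between the precursors -0.0674 for KRT7 and -0.0715 for KRT80. normexp gave KRT80 -0.0269 against scrambled and -0.088 between the precursors. KRT7 between the precursors was -0.144 with quantile normalization and -0.121 in the authors' table, and KRT19 with hsa-miR-214-3p was 0.0362 and 0.0219 in these. When 1 array was left out, KRT19 with hsa-miR-214-3p ran from -0.232 to 0.183 and KRT17 from -0.447 to 0.0437. Between the precursors, KRT17 then ran from -0.28 to 0.211, KRT18 (A_24_P42136) from -1.39 to 0.267 and KRT80 from -0.0007 to 0.306. Leaving out 1 array also gave -0.122 to 0.758 for KRTAP2-4, -0.0894 to 0.727 for KRTAP1-3 and -0.0059 to 0.677 for KRTAP1-4 with hsa-miR-205-5p, and -0.753 to 0.127 for KRTAP2-4 with hsa-miR-214-3p. The cause of these changes was not tested. Arrays with the same replicate number were not stated to be paired, and their deviations from the group means correlated at 0.109, 0.008 and -0.051. With the replicate block the keratin counts were 1, 0 and 2. Over all probes with hsa-miR-214-3p against scrambled, 311 lower and 183 higher became 0 and 0 (smallest adjusted p = 0.0723), so IFFO1 and LEF1 were not called there, nor was KRTAP10-9 between the precursors (adjusted p = 0.0572). The block changed no other call among the named probes. With 2 arrays per group, a 2-fold change in a probe as variable as KRT18 at A_24_P42136 lies within its interval.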
